A study of Mus musculus with 12 samples.

Results

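The set comprised 10 genes of the early lymphoid and B cell programme, namely Rag1, Rag2, Dntt, Il7r, Ebf1, Pax5, Cd79a, Cd79b, Blnk and Bank1. Its members were the probe sets that the platform annotation gives to exactly 1 of these symbols. These were 18 of the 45037 probe sets that are not controls, and the genes were 10 of 18193 with such a probe set. Expression was measured on 12 single-colour Affymetrix mouse arrays in KSL cells, the c-Kit+ Sca-1+ lineage-negative bone marrow fraction that holds haematopoietic stem cells and early progenitors, from mice aged 2 to 4 months. The 4 groups of 3 arrays were cells labelled Fancc mutant with TNF, cells labelled Fancc mutant without TNF, wild-type cells with TNF and wild-type cells without TNF. In 10% serum, every culture received 4 cytokines, which were Flt3 ligand at 50 ng/ml, IL-6 at 20 ng/ml, and both stem cell factor and IL-11 at 10 ng/ml. The treated ones also held TNF (tumour necrosis factor alpha), a cytokine of inflammation, at 10 ng/ml for 24 h. Every value therefore describes cells after culture, not cells as sorted.

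Lymphoid progenitors first switch on the recombinase genes Rag1 and Rag2 and the DNA polymerase gene Dntt, which together cut and diversify antigen receptor genes, and then the receptor for interleukin-7. Commitment to the B lineage follows through the transcription factors EBF1 and PAX5, which turn on the signalling chains and adaptors of the B cell receptor. A low level of some of these transcripts is known in multipotent progenitors, a state called lymphoid priming.

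Rag1 was higher with TNF in both genotypes, about 4-fold to 5-fold, and this was the member with the largest difference. Its call in wild type ended in 3 of the alternative settings run, while its mutant-labelled and averaged calls held in all. Averaged over genotype, Ebf1 was also higher with TNF, by 1 of its 5 probe sets, and Cd79a and Bank1 were lower. Each of these 3 calls was less stable, and ended in 9 to 11 of the 20 or 21 alternative settings run for it. Dntt and Il7r, which had bright signals without TNF, did not pass the test, and no member passed a comparison of the arrays labelled mutant with wild type. Differences are on the log2 scale, in which 1 is a doubling, and the test throughout was limma's moderated test over 18193 genes, with a Benjamini-Hochberg adjusted p under 0.05 as the threshold. In bulk RNA of this kind, a change in the number of cells that express a gene and a change in its RNA per cell cannot be told apart. Whether replicates came from separate mice is not stated in the labels, although some samples held cells of more than 1 mouse, as given below. The p-values therefore measure only the spread among these samples, perhaps technical in part, and the number of arrays limits the precision.

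Label and quality checks were made over all arrays. Array medians lay between 5.96 and 6.06 (log2). Kit, which marks the sorted fraction, and Cd34, Flt3 and Cd48 had a mean over the 4 genes between 11.71 and 12.01 on every array. Kit alone read 9.95 to 10.77. Of these 4, 0 passed the test for TNF averaged over genotype. Averaged over TNF, Kit gave -0.31 for the arrays labelled mutant minus wild type and did not pass (limma adjusted p = 0.490). Ly6a, which encodes Sca-1, was not analysed here. Fancc read 8.73 to 9.16 on the arrays labelled mutant and 8.22 to 8.65 on the wild-type arrays. Its signal was thus higher on every array labelled mutant than on any wild-type array. How the gene was altered, and whether its probe set falls within the altered part, is not known here. Xist read 5.06 to 5.47 on untreated wild-type replicates 1 and 2 and untreated replicate 1 labelled mutant, and at least 12.04 on the other 9 arrays. The Y-linked gene Eif2s3y read 3.79 on TNF-treated wild-type replicate 3 and 4.16 on untreated replicate 2 labelled mutant, and at least 10.4 elsewhere, so both signals differed among replicates. Both were bright on untreated wild-type replicate 3, TNF-treated wild-type replicates 1 and 2, untreated replicate 3 labelled mutant and every TNF-treated array labelled mutant. Those samples therefore held both male and female cells, and so cells of more than 1 mouse. All arrays with low Xist were untreated, so the Xist signal was not balanced between treated and untreated arrays, least of all in wild type. Calls for members that change when both signals enter as covariates are given with that value below.

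The regions upstream of the genes that passed a test, and of Rag2 as the neighbour of Rag1, are shown here. A link between their motifs and the differences with TNF was not tested. They are the 250 bases before the transcript start in RefSeq, build GRCm38.p6, each written 5′ to 3′ on the strand of the gene. Capitals mark matches, on either strand, to CAGGTG (or its complement CACCTG), an E-box of the kind bound by E proteins, to CCCNNGGG, an EBF-type motif, or to GGG and CC with any 5 bases between them (GG and CCC on the other strand), a kappaB-type motif.
Rag1 (chr2:101649533-101649782, minus strand): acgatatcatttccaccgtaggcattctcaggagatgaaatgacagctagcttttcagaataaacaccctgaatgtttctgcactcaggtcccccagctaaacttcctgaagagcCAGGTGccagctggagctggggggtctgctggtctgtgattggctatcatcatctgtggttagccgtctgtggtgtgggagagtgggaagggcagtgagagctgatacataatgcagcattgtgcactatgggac
Rag2 (chr2:101624462-101624711, plus strand): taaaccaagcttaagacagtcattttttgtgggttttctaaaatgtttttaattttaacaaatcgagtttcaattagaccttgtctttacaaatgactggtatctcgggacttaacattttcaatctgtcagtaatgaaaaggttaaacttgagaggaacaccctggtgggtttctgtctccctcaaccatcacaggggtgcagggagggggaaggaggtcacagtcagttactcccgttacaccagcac
Ebf1, first of 2 starts (chr11:44617850-44618099, plus strand): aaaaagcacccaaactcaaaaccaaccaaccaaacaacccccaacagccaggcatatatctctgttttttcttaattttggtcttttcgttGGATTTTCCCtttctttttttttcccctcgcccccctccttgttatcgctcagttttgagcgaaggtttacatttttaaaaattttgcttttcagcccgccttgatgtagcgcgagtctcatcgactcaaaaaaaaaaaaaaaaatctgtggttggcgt
Cd79a (chr7:24897247-24897496, plus strand): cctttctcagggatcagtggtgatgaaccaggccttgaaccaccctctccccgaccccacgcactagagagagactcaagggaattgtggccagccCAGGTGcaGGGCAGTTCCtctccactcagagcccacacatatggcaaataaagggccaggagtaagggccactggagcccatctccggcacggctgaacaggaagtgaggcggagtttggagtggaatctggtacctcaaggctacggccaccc
Bank1 (chr3:136326067-136326316, minus strand): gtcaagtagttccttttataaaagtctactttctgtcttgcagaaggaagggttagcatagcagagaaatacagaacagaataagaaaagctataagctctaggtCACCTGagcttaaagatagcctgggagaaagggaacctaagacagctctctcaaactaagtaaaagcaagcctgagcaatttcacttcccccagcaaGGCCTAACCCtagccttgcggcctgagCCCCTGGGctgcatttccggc

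The Rag1 window held 1 E-box, at position -135 counted from the start, and the Rag2 window held none of the 3 motifs. The Ebf1 window held a kappaB-type match at -159, and the second Ebf1 start held none. In Cd79a, an E-box at -154 and a kappaB-type match at -146 lay 2 bases apart, and Bank1 held all 3 kinds, at -145, -21 and -48 for the E-box, EBF-type and kappaB-type motifs. The start used for Bank1 lies inside the annotated gene, so the end of its window overlaps the gene. Its EBF-type and kappaB-type matches fall in that overlap. Among the 9 members with a window, 4 held an E-box, 1 an EBF-type match and 4 a kappaB-type match, where a gene with several starts counts once. Over all 32851 windows of this length, 17.2% held an E-box, 11.8% an EBF-type match and 45.8% a kappaB-type match. These matches describe the letters only.

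Rag1 encodes the catalytic subunit of the V(D)J recombinase. It read 8.28, 9.34 and 8.41 on the TNF arrays labelled mutant, against 6.08, 6.99 and 6.15 on the untreated ones. It read 7.60, 9.02 and 8.64 on the wild-type TNF arrays, against 6.52, 6.47 and 6.32 on the untreated ones. All 6 treated arrays stood above all 6 untreated arrays, as was the case for 3.89% of all genes. The difference was 2.27 on the arrays labelled mutant (4.81-fold, SE 0.38, limma adjusted p = 0.00689) and 1.98 in wild type (3.95-fold, SE 0.38, limma adjusted p = 0.0136). Averaged over genotype it was 2.12 (4.36-fold, SE 0.27, limma adjusted p = 0.000505, higher on 6 of 6 treated arrays). The call in wild type ended without untreated wild-type replicate 3 (1.92, limma adjusted p = 0.0527), without TNF-treated wild-type replicate 3 (1.87, limma adjusted p = 0.0580) and with the Xist and Eif2s3y signals as covariates (1.81, limma adjusted p = 0.0988). The call on the arrays labelled mutant and the averaged call held under every alternative run, with limma adjusted p from 0.0017 to 0.0354 and from 0.000147 to 0.00904.

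Rag2, the partner subunit of the recombinase, lies next to Rag1 on chromosome 2, with 0 protein-coding genes starting between them. It read 6.92, 8.05 and 7.16 on the TNF arrays labelled mutant, against 6.49, 6.50 and 6.42 on the untreated ones. It read 6.56, 7.69 and 7.18 on the wild-type TNF arrays, against 6.69, 6.22 and 6.81 on the untreated ones. The groups did not overlap on the arrays labelled mutant and overlapped in wild type. Averaged over genotype the difference was 0.73 (SE 0.22), and it did not pass (limma adjusted p = 0.0573). It passed without TNF-treated wild-type replicate 1 (0.88, limma adjusted p = 0.0204), without TNF-treated replicate 1 labelled mutant (0.85, limma adjusted p = 0.0392), with trended and robust moderation (limma adjusted p = 0.0444) and after cyclic loess (limma adjusted p = 0.0483).

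Dntt encodes terminal deoxynucleotidyl transferase, which adds bases at the joins that the recombinase leaves. Its brightest probe set read 12.17, 12.79 and 12.27 on the TNF arrays labelled mutant, against 12.29, 12.29 and 11.82 on the untreated ones. It read 11.74, 12.58 and 12.38 on the wild-type TNF arrays, against 12.30, 12.21 and 12.07 on the untreated ones. Treated and untreated arrays overlapped in both genotypes. The averaged difference was 0.16 (95% interval -0.20 to 0.51, limma adjusted p = 0.592). Its dimmest probe set spread most among treated arrays, at 10.86, 12.30 and 11.00 for those labelled mutant and 9.79, 12.08 and 11.07 for wild type, and replicate 2 was the highest in both groups.

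**Figure D1:**
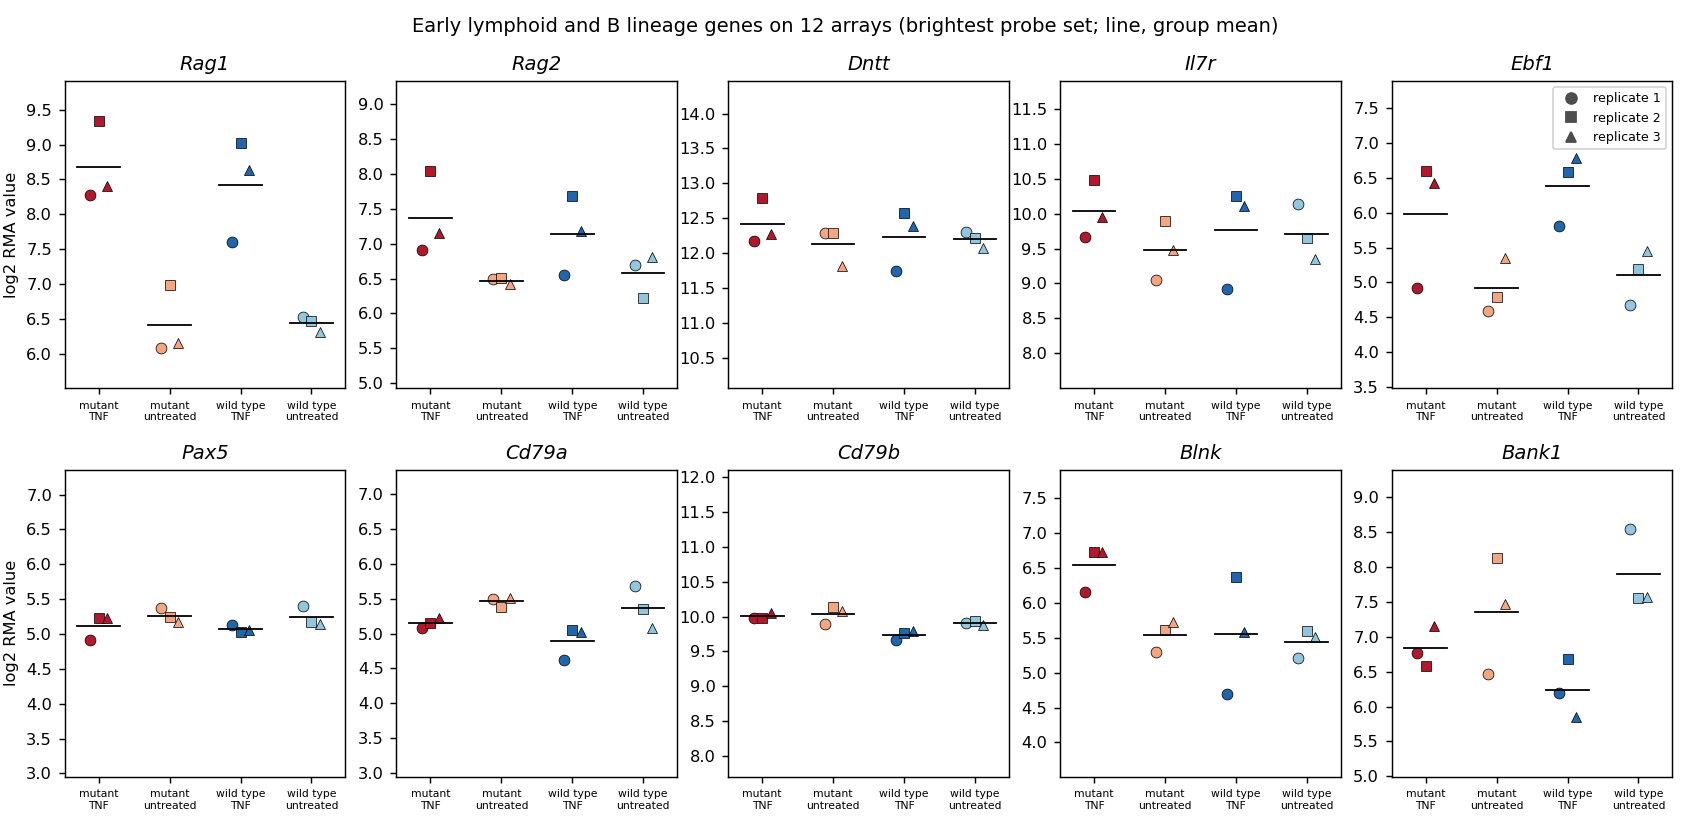
Log2 signal of each of the 10 genes (brightest probe set) on every array, with 1 panel per gene and the 4 groups along the horizontal axis; points are arrays, their shapes replicate numbers, and horizontal lines group means. Rag1 separated all 6 treated from all 6 untreated arrays, while Dntt and Il7r overlapped.

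Il7r encodes the alpha chain of the interleukin-7 receptor, a survival and growth receptor of lymphoid progenitors. It read 9.66, 10.49 and 9.96 on the TNF arrays labelled mutant, against 9.05, 9.89 and 9.49 on the untreated ones. It read 8.92, 10.25 and 10.11 on the wild-type TNF arrays, against 10.14, 9.66 and 9.35 on the untreated ones. The groups overlapped in both genotypes, and the wild-type TNF arrays held both the lowest and the second highest value. Averaged over genotype the difference was 0.30 (95% interval -0.27 to 0.87, limma adjusted p = 0.511). Its second, dimmer probe set did not overlap between groups on the arrays labelled mutant, at 6.36, 7.36 and 6.44 with TNF and 5.92, 6.10 and 6.23 without, and did not pass either.

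Ebf1 encodes early B cell factor 1, which starts the B lineage programme. Its brightest probe set read 4.91, 6.60 and 6.43 on the TNF arrays labelled mutant, against 4.60, 4.79 and 5.36 on the untreated ones. It read 5.81, 6.59 and 6.78 on the wild-type TNF arrays, against 4.68, 5.20 and 5.45 on the untreated ones. The wild-type groups did not overlap, and on the arrays labelled mutant TNF replicate 1 lay within the untreated range. The averaged difference was 1.17 (2.26-fold, SE 0.30, limma adjusted p = 0.0278), and neither genotype passed alone, at 1.07 on the mutant-labelled arrays (limma adjusted p = 0.226) and 1.28 in wild type (limma adjusted p = 0.126). The other 4 probe sets of Ebf1 gave averaged differences of 0.30, 0.34, -0.09 and 0.54, and none passed. Most of these readings lay below the array medians, a range in which array differences are compressed. The averaged call ended with the mean of the 5 probe sets (0.45, limma adjusted p = 0.177), with the sex-linked covariates (0.94, limma adjusted p = 0.232), and without any 1 of 7 arrays (limma adjusted p from 0.0597 to 0.0692). These were untreated wild-type replicate 1, TNF-treated wild-type replicates 2 and 3, untreated replicates 1 and 2 labelled mutant, and TNF-treated replicates 2 and 3 labelled mutant. Without TNF-treated replicate 1 labelled mutant, Ebf1 passed in each genotype alone, at 1.60 on the mutant-labelled arrays (limma adjusted p = 0.0265) and with limma adjusted p = 0.0357 in wild type.

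**Figure D2:**
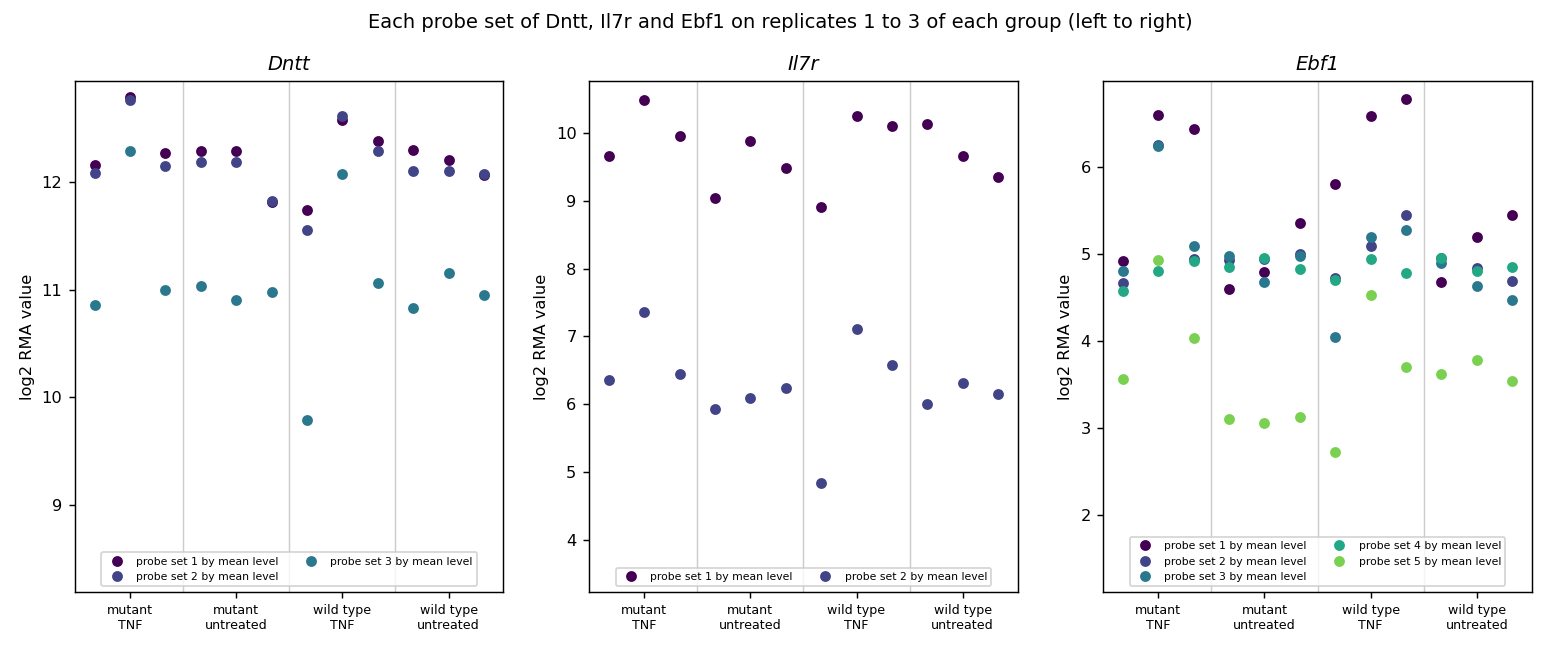
Log2 signal of each probe set of Dntt, Il7r and Ebf1, 1 panel per gene, with the 4 groups along the horizontal axis, replicates 1 to 3 from left to right within a group, 1 point per array and 1 colour per probe set. The brightest Ebf1 probe set separated the wild-type groups, and the other 4 Ebf1 probe sets did not pass.

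Pax5 encodes the factor that maintains B cell identity downstream of EBF1. It read 4.91, 5.23 and 5.23 on the TNF arrays labelled mutant, against 5.37, 5.24 and 5.17 on the untreated ones. It read 5.13, 5.03 and 5.05 on the wild-type TNF arrays, against 5.40, 5.18 and 5.15 on the untreated ones. All 12 values lay below the array medians, and the averaged difference was -0.15 (SE 0.08, limma adjusted p = 0.229).

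Cd79a and Cd79b encode the paired signalling chains of the B cell receptor. Cd79a read 5.08, 5.15 and 5.23 on the TNF arrays labelled mutant, against 5.50, 5.39 and 5.51 on the untreated ones. It read 4.62, 5.05 and 5.02 on the wild-type TNF arrays, against 5.68, 5.35 and 5.09 on the untreated ones. Within each genotype the treated arrays all lay below the untreated ones, and all were below the array medians. The averaged difference was -0.40 (SE 0.11, limma adjusted p = 0.0343), while neither genotype passed alone, at -0.31 on the mutant-labelled arrays (limma adjusted p = 0.320) and -0.48 in wild type (limma adjusted p = 0.109). The averaged call ended in 11 of 20 alternatives, among them the sex-linked covariates (-0.25, limma adjusted p = 0.318), the test over all probe sets (limma adjusted p = 0.0517), and leaving out any 1 of 8 arrays (limma adjusted p from 0.0536 to 0.0759). These were untreated wild-type replicate 2, TNF-treated wild-type replicate 1, and each of the 6 arrays labelled mutant.

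Cd79b read 9.98, 9.98 and 10.05 on the TNF arrays labelled mutant, against 9.89, 10.14 and 10.07 on the untreated ones. It read 9.67, 9.76 and 9.80 on the wild-type TNF arrays, against 9.91, 9.93 and 9.88 on the untreated ones. The wild-type groups did not overlap, and those labelled mutant did. The averaged difference was -0.10 (SE 0.06, limma adjusted p = 0.301).

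Blnk encodes the adaptor that links the B cell receptor to downstream enzymes, and it lies next to Dntt on chromosome 19, with 0 protein-coding genes starting between them. It read 6.16, 6.73 and 6.73 on the TNF arrays labelled mutant, against 5.30, 5.61 and 5.72 on the untreated ones. It read 4.69, 6.37 and 5.59 on the wild-type TNF arrays, against 5.21, 5.60 and 5.51 on the untreated ones. The groups labelled mutant did not overlap, and the wild-type TNF arrays spread on both sides of the untreated ones. The difference was 1.00 on the arrays labelled mutant (SE 0.34, limma adjusted p = 0.151) and 0.11 in wild type (limma adjusted p = 0.911), and neither passed. Without TNF-treated wild-type replicate 1, the lowest array, it passed averaged over genotype (0.77, limma adjusted p = 0.0166) and on the mutant-labelled arrays (limma adjusted p = 0.0371). It also passed on the arrays labelled mutant in a fit of only those 6 arrays (limma adjusted p = 0.0410).

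Bank1 encodes a scaffold protein of B cell receptor signalling. It read 6.77, 6.57 and 7.16 on the TNF arrays labelled mutant, against 6.46, 8.12 and 7.47 on the untreated ones. It read 6.19, 6.69 and 5.85 on the wild-type TNF arrays, against 8.54, 7.56 and 7.58 on the untreated ones. The wild-type groups did not overlap and those labelled mutant did. The difference in wild type was -1.65 (3.14-fold lower, SE 0.40, limma adjusted p = 0.0407), and on the arrays labelled mutant it was -0.52 (limma adjusted p = 0.590). Averaged over genotype it was -1.09 (2.12-fold lower, SE 0.28, limma adjusted p = 0.0311). The wild-type call ended in 13 of 22 alternatives, which left out any of the 6 wild-type arrays, untreated replicate 3 labelled mutant or TNF-treated replicate 1 or 3 labelled mutant (limma adjusted p from 0.0524 to 0.150), or changed the fit (limma adjusted p from 0.0525 to 0.110). The averaged call ended in 9 of 21, which left out untreated wild-type replicate 1, TNF-treated wild-type replicate 1 or 3, untreated replicate 2 or 3 labelled mutant or TNF-treated replicate 1 or 2 labelled mutant (limma adjusted p from 0.0572 to 0.0760), or changed the fit (limma adjusted p from 0.0517 to 0.0914, the highest with the sex-linked covariates).

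**Figure D3:**
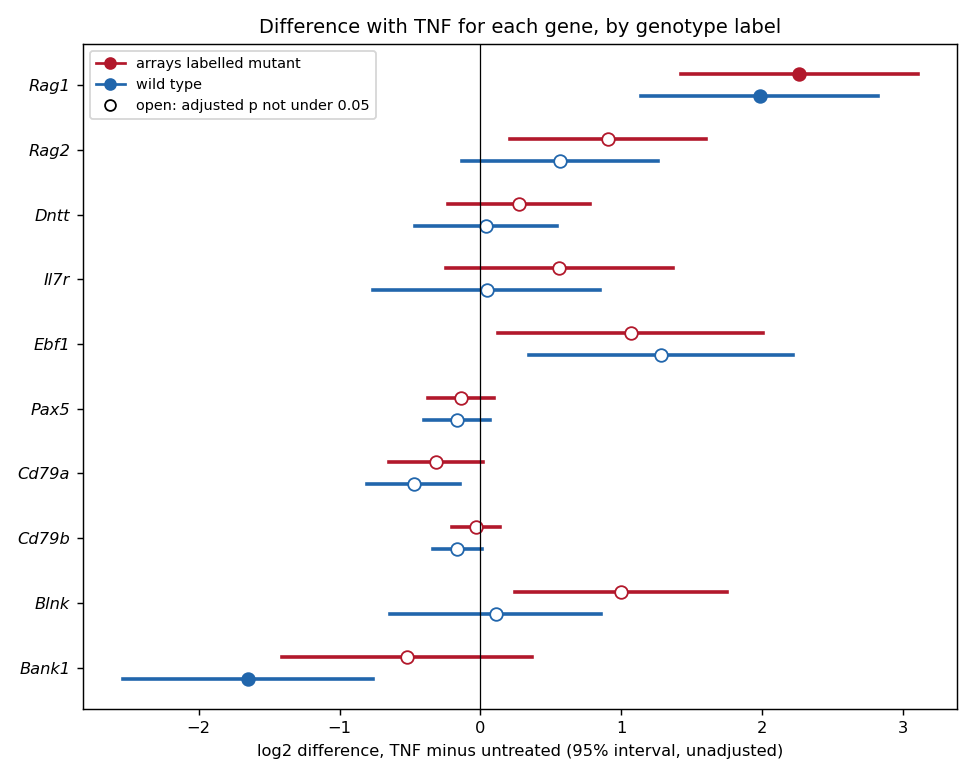
Log2 difference, TNF minus untreated, for each gene on the arrays labelled mutant and in wild type, with unadjusted 95% intervals and filled points where the limma adjusted p was under 0.05. Rag1 was filled in both genotypes, at 2.27 and 1.98, and Bank1 in wild type at -1.65.

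Over the set, 1 of 10 members, a higher one, passed for TNF on the arrays labelled mutant, where 4.31% of all genes passed and 2.45% were higher. In wild type 2 of 10 passed, 1 higher and 1 lower, where 5.02% of all genes did, 2.69% higher and 2.33% lower. Averaged over genotype 4 of 10 passed, 2 in each direction, where 12.1% of all genes did, 5.81% higher and 6.32% lower, and the medians were 0.23 for the members and -0.03 for all genes. On the arrays labelled mutant 3 members were higher without overlap (10.4% of all genes) and 1 was lower (15.8%). In wild type 2 were higher (8.87%) and 4 lower (11.7%). The averaged calls over all genes split into 1057 higher and 1150 lower as deposited, 852 and 1419 after centring arrays on their medians, and 1215 and 979 after cyclic loess.

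The genotypes were compared as labelled, to ask whether these genes or their response to TNF differed between them. With TNF, 0 of 10 members passed (0.0055% of all genes), and without TNF 0 of 10 passed (0.0055%). Averaged over TNF, 0 of 10 passed (0.022%), and for the interaction 0 of 10 passed (0%). By limma's unadjusted p under 0.05 the counts were 2, 0, 2 and 0 of 10 in the same order, where 5.6%, 4.12%, 7.39% and 2.9% of all genes were under it. The members counted with TNF and averaged over TNF were Cd79b, which with TNF was 0.26 higher on the arrays labelled mutant than in wild type (SE 0.08, limma adjusted p = 0.585), and Blnk, which was 0.99 higher (SE 0.34, limma adjusted p = 0.704). Arrays of Cd79b did not overlap between genotypes with TNF, and neither did those of Cd79a (0.25, limma adjusted p = 0.956), where 4.2% of all genes were higher without overlap. The response to TNF differed between the genotypes by 1.13 for Bank1 (95% interval -0.13 to 2.39), 0.89 for Blnk (-0.17 to 1.95) and 0.28 for Rag1 (-0.90 to 1.47).

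Replicates within the treated groups departed together over several members. TNF-treated replicate 1 was the lowest of its group for 8 of 10 members on the arrays labelled mutant and for 8 of 10 in wild type, where the share over all genes was 31.7% for each array. TNF-treated replicate 2 was the highest of its group for 6 of 10 members on the arrays labelled mutant (32.7% of all genes) and for 7 of 10 in wild type (36.6%). Members measured on 1 array are not independent of each other.

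**Figure D4:**
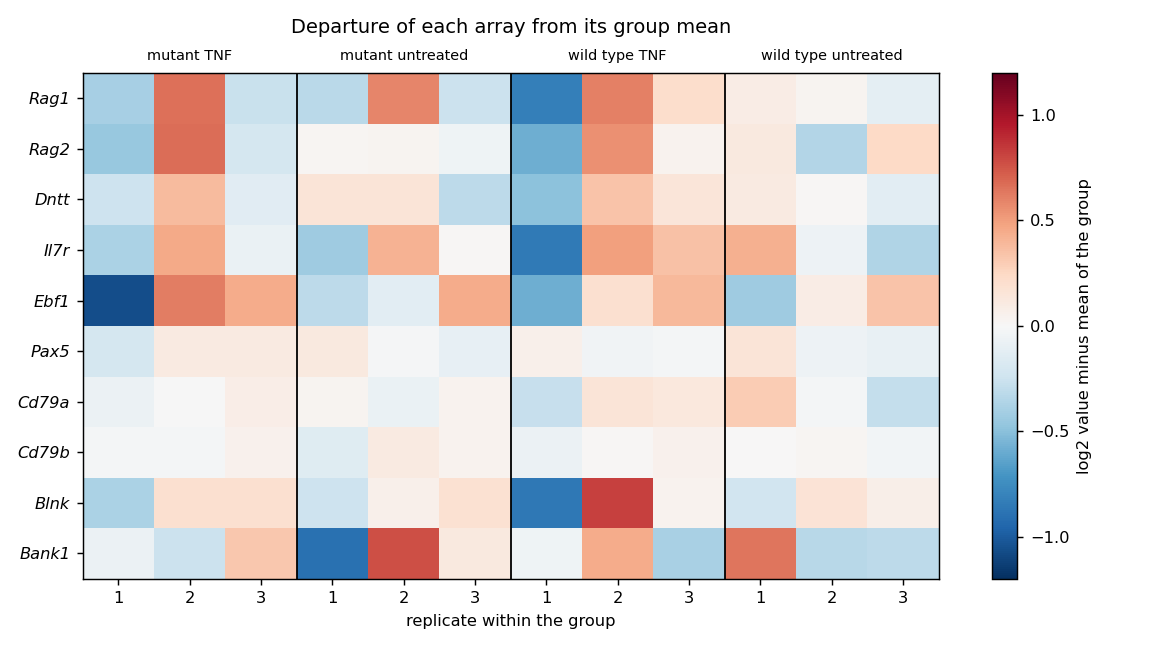
Log2 departure of each array from the mean of its group, with genes down the page, arrays across it by group and replicate, red above and blue below the group mean. Replicate 1 of both TNF groups was below the mean for most members, 8 of 10 of which were the lowest of their group.

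Genes of the same pathways, outside the set, moved in both directions with TNF averaged over genotype. Of 20 other early lymphoid and B lineage transcription factors, 5 were higher, 2 lower and 13 did not pass, where 5.81% of all genes were higher and 6.32% lower. The same shares apply to the counts of the other lists. Irf4 (2.05, limma adjusted p = 4.2e-05), Spib (1.90, limma adjusted p = 0.000794), Bach2 (1.15, limma adjusted p = 5.3e-05) and Bcl11a (0.98, limma adjusted p = 6.9e-05), which act in B or plasmacytoid dendritic cell development, were higher. Irf8, of the same gene family as Irf4, is listed below with the monocyte markers and was lower (-1.57, limma adjusted p = 0.000101). Id2 (-0.69, limma adjusted p = 0.0045) and Id3 (-0.74, limma adjusted p = 0.0464), inhibitors of E proteins, were lower, and the call for Id3 ended in 13 of 21 alternatives. The call for Id2 ended with the sex-linked covariates (limma adjusted p = 0.0721). Tcf3, Foxo1 and Ikzf1, which act with EBF1 in early B cells, gave 0.05, 0.11 and 0.11 and did not pass.

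Of 18 other B cell receptor and pre-B receptor signalling genes, 3 were higher, 1 lower and 14 did not pass. Rasgrp3, an activator of Ras (1.64, limma adjusted p = 0.00503), the kinase gene Prkcb (1.13, limma adjusted p = 0.0406) and the inhibitory coreceptor gene Cd72 (0.63, limma adjusted p = 0.00243) were higher, and the kinase gene Tec was lower (-0.65, limma adjusted p = 0.00332). The call for Prkcb ended in 11 of 21 alternatives, with the highest limma adjusted p, 0.232, under the sex-linked covariates. The surrogate light chain genes Vpreb1 (-0.77, limma adjusted p = 0.159) and Igll1 (-0.07, limma adjusted p = 0.822) did not pass. Of 11 other genes of the interleukin-7 receptor pathway, 0 were higher and 2 lower, the survival gene Bcl2 (-0.99, limma adjusted p = 1.3e-05) and the kinase gene Pim1 (-0.31, limma adjusted p = 0.00107). Of 9 other genes of V(D)J recombination and joining, Xrcc5, which encodes the Ku80 end-binding protein, was higher (1.14, limma adjusted p = 0.000354), Poll, a repair polymerase gene, was lower (-0.41, limma adjusted p = 0.00847) and 7 did not pass.

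**Figure D5:**
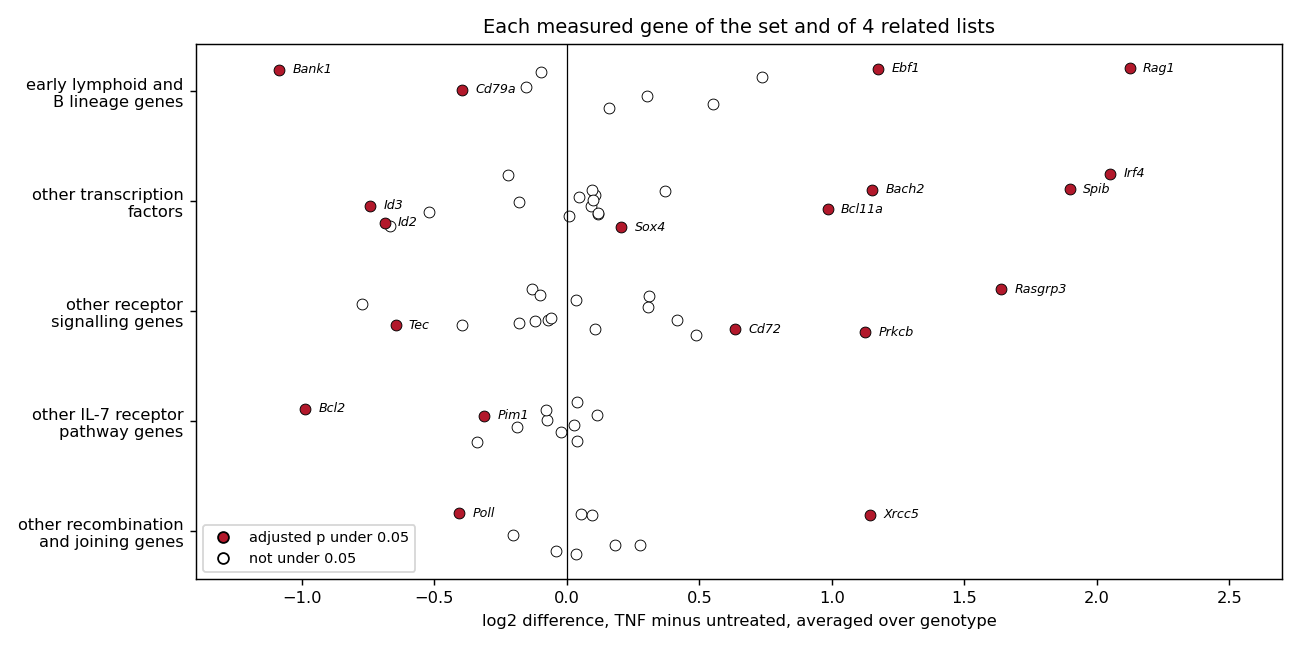
Log2 difference, TNF minus untreated, averaged over genotype, for each measured gene of the set and of 4 related lists, 1 row per list, with filled points and names where the limma adjusted p was under 0.05. Calls lie on both sides of 0 in every list but that of the interleukin-7 receptor pathway, where both are lower.

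Markers of other cell types were read beside these results. Of 4 mature B cell markers, 1 was higher, Fcer2a (2.69, limma adjusted p = 0.000377), and 0 were lower. Cr2 (0.31), Cd22 (0.31) and Ms4a1 (-0.17) did not pass, so the mean of the list moved mostly with Fcer2a. The mean signal of the 4 markers was 4.63 to 5.36 on the TNF arrays labelled mutant and 4.28 to 4.39 on the untreated ones. It was 5.08 to 5.29 on the wild-type TNF arrays and 4.20 to 4.53 on the untreated ones. Ms4a1, the CD20 gene, read 3.77 to 4.40 on all arrays, below the array medians. Of 7 plasmacytoid dendritic cell markers, 2 were higher, Ly6d (3.13, limma adjusted p = 0.000228) and Siglech (0.66, limma adjusted p = 0.0378), and 0 lower. The other 5 did not pass and went both ways, at 0.19 for Ccr9, 0.08 for Tcf4, -0.07 for Bst2, -0.42 for Klk1 and -0.43 for Cox6a2. The call for Siglech ended in 11 of 21 alternatives, with the highest limma adjusted p, 0.254, under the sex-linked covariates. The mean signal of this list was 9.52 to 9.79 on the TNF arrays labelled mutant and 9.03 to 9.27 on the untreated ones, and 9.09 to 9.75 on the wild-type TNF arrays and 8.89 to 9.18 on the untreated ones. Of 9 T and NK cell markers, Cd5 was higher (2.03, limma adjusted p = 0.00162), Nkg7 was lower (-1.62, limma adjusted p = 1.9e-06), and Cd3e read at most 3.69.

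Averaged over genotype, 8 of 8 neutrophil markers passed as lower with TNF, where 6.32% of all genes did. On the arrays labelled mutant 3 of 8 passed as lower, where 4.31% of all genes passed in either direction. In wild type 6 of 8 passed as lower (2.33% of all genes). In both genotypes 0 of 8 differences were positive. They ran from -4.75 to -0.95 on the arrays labelled mutant and from -5.08 to -0.69 in wild type, and 0 of 8 passed for the interaction. Averaged over genotype, Mmp8 gave -4.92 (limma adjusted p = 6.6e-06) and Elane -3.54 (limma adjusted p = 0.00178), while the call for S100a9 ended in 12 of 21 alternatives. The mean signal of the neutrophil list was 8.35 to 9.72 on the TNF arrays labelled mutant and 11.25 to 11.68 on the untreated ones, and 7.04 to 8.50 on the wild-type TNF arrays and 10.61 to 11.15 on the untreated ones. Of 7 monocyte and macrophage markers 3 were lower averaged over genotype and 4 did not pass. The 3 were F13a1 (-4.46, limma adjusted p = 1.4e-05), Ccr2 (-1.76, limma adjusted p = 0.000133) and Irf8 (-1.57, limma adjusted p = 0.000101). The 4 that did not pass went both ways, at 0.50 for Lyz2, 0.10 for Csf1r, -0.56 for Adgre1 and -0.66 for Ms4a6c. Of 4 erythroid markers 1 was lower, Klf1 (-0.65, limma adjusted p = 0.00278). The mean signal of the monocyte list was 9.50 to 10.85 on the TNF arrays labelled mutant and 11.04 to 11.60 on the untreated ones, and 9.35 to 9.88 on the wild-type TNF arrays and 10.77 to 11.26 on the untreated ones. The part of these cell types in the results for the set was not tested.

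For the 4 members that passed averaged over genotype, the 3 genes with the most similar pattern over the 12 arrays were found by Pearson correlation, between genes that share the treatment and the arrays. For Rag1 they were Il18r1 (0.985), Slc14a1 (0.982) and Serpinc1 (0.981), each higher with TNF by 2.19, 1.08 and 3.07. For Ebf1 they were Bcl6b (0.938), 2700081O15Rik (0.930) and Atxn10 (0.924). Atxn10 did not pass for TNF averaged over genotype (limma adjusted p = 0.0866). The calls for Bcl6b and 2700081O15Rik ended with the sex-linked covariates (limma adjusted p = 0.0726 and 0.0517). For Cd79a they were E030030I06Rik (0.936), Gm364 (0.917) and Fam234b (0.905), and for Bank1 they were Got2 (0.921), Tpd52l1 (0.918) and Map2k4 (0.917).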

How the data were processed

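The authors deposited log2 expression values per probe set, made with RMA per the submitters' processing notes, with version and log base not given in the sources used here. A range of 2.14 to 14.94 over all values fits base 2. Because RMA makes the distributions of arrays alike, a shift common to all genes cannot be seen. Groups and replicate numbers came from the labels.

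The platform annotation gave 1 symbol to 34945 probe sets, several to 932 and none to 9160; 64 control probe sets were left out, and 0 member probe sets were shared with another symbol. The probe set with the highest mean over all arrays stood for each of 18193 genes. With limma 3.58.1 in R 4.3.3, 1 mean per group was fitted over all 12 arrays, giving 7 contrasts, each tested on both sides and adjusted by Benjamini-Hochberg. A dim-signal filter (3 or more arrays above 7.44, which left 9444 genes) passed Rag1, Dntt, Il7r, Cd79b and Bank1, of which Rag1 passed only through its TNF arrays and Bank1 only through untreated arrays. Other alternatives were a replicate block, the mean of probe sets, centring, cyclic loess, other moderation, array weights (statmod 1.5.0), fewer groups in the fit, and leaving out each array. Tests of all probe sets and Xist and Eif2s3y signals as covariates were run too, the covariates chosen in view of earlier results. The same alternatives for genes of the related lists were added after seeing the data. The fit was tested on simulated data.

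The members and lists were chosen with earlier results of these data known. Every member was named, as were up to 6 called genes of largest averaged difference per related list, 3 genes most correlated with each called member, and Fancc, Xist and Eif2s3y. Ly6a, Tcf3, Foxo1, Ikzf1, Vpreb1, Igll1, Ms4a1 and Cd3e were named as defining genes of their lists, and Kit, Cd34, Flt3 and Cd48 as markers, outside this rule and with their values seen. The uncalled markers of mature B cells, plasmacytoid dendritic cells and monocytes were named in the same way. Start regions came from RefSeq, which held 9 of the 10 members.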

Additional observations from a re-analysis of the deposited data

How the results depend on the processing

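The count of members past the threshold for TNF moved with the processing. In wild type, where 2 passed, 1 passed over all probe sets and in a fit of only the groups compared, 0 with the Xist and Eif2s3y covariates, and 0 to 2 when each array was left out. On the arrays labelled mutant, where 1 passed, 2 passed in a fit of only the groups compared, and 1 to 2 when each array was left out. Averaged over genotype, where 4 passed, 2 passed under the dim-signal filter, which removed Ebf1 and Cd79a before the test and kept Rag1 and Bank1 only through the arrays where they are high, so that this count supports nothing, 1 with the covariates, and 1 to 4 when each array was left out. With a replicate block 3 passed on the arrays labelled mutant and 2 averaged over genotype; Ebf1 passed in each genotype alone (limma adjusted p = 0.0340 on the arrays labelled mutant and 0.0149 in wild type) and Cd79a no longer passed averaged over genotype (0.0620). The labels share numbers but do not say what a number marks. The 18 correlations of deviations between same-numbered arrays ran from -0.159 to 0.278, with 7 over 0.1. In 19 of 36 comparisons with another group an array correlated best with its own number, and 1 of 12 arrays did so in every other group. Whether a number marks a shared mouse, day or batch cannot be told from these values. All counts for genotype and for the interaction were 0 in each alternative run. The cause of these shifts was not tested otherwise. Of 1475 member values under an alternative, 1349 kept their direction and side of the threshold. Another 45 lost their call, 12 gained one, and 69 values that had not passed changed sign. These values cover every member in all 7 contrasts, so most belong to results that had not passed and had no call to lose. The 45 losses were 22 for Bank1, 11 for Cd79a, 9 for Ebf1 and 3 for Rag1. The share of 1475 therefore does not measure how stable the calls were. Signals below the array medians limit what Ebf1, Pax5 and Cd79a can show.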
